A study of Mus with 15 samples.

Results

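RNA libraries of mouse skin, 10 in number, were divided by their own level of Krt71, a keratin of the inner root sheath, the sleeve of cells that moulds a growing hair. The 10 libraries came from healthy mice and make up 10 of the 15 in the series. They were 5 of uninjured skin, which the labels also call sham (normal skin 1 to 5), and 5 of surgical wounds (healthy wound 1 to 5). Krt71 stood at 100 CPM (counts scaled to a library total of 1e+06) or more in 6 libraries, normal skin 3, 4 and 5 and healthy wound 2, 4 and 5, which are called Krt71-high. It was under 10 CPM in the other 4, normal skin 1 and 2 and healthy wound 1 and 3, which are called Krt71-low. The other 5 libraries of the series came from wounds of mice with type I diabetes, were outside the rule and held Krt71 at 0 to 0.0617 CPM. All RNA was poly-A selected from frozen tissue, and no agent, allele or transgene is named for any of the 3 groups, nor how diabetes was brought about. The sources used here name no strain, age, sex, body site or time after wounding. Whether 2 libraries can share an animal is not stated, and p-values therefore rest on a spread among these samples that may be technical. Depth ran from 15693964 to 17777165 counts over the 10 libraries. In bulk tissue, fewer cells of a type and less RNA per cell cannot be told apart.

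Hair follicles pass through cycles of growth (anagen), regression (catagen) and rest (telogen). In growth, matrix cells at the base of the follicle divide beside the dermal papilla and differentiate into the concentric layers of the hair shaft and the inner root sheath, under Wnt, Hedgehog, BMP and Notch signals. Pigment cells of the bulb make melanin only while the shaft grows. In mouse back skin the fat layer below the follicles thickens with growth. Because growth spreads across mouse skin in waves, neighbouring patches of the same animal can be in different phases.

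Krt71 chose the libraries, so its values and those of genes from the same contrast are a description with no test. The Krt71 level was 447, 288 and 1895 CPM in Krt71-high skin, 0 and 4.72 CPM in Krt71-low skin, 2805, 537 and 149 CPM in Krt71-high wounds and 0.457 and 0 CPM in Krt71-low wounds, in the order of the library numbers, as in all later sentences of this form. The Krt71-high library nearest the limit was healthy wound 5 and the Krt71-low library nearest it was normal skin 2, so no library lay between 4.72 and 149 CPM. Krt25, the partner keratin of Krt71 in the sheath, stood at 256, 212 and 1207 CPM in Krt71-high skin, 0.0572 and 2.74 CPM in Krt71-low skin, 1356, 344 and 104 CPM in Krt71-high wounds and 0.514 and 0.173 CPM in Krt71-low wounds. Its range was 103.5 to 1356 CPM in the Krt71-high libraries and 0.0572 to 2.74 CPM in the Krt71-low ones. Krt71 lies on chromosome 15 from 101733949 to 101743109 and Krt25 on chromosome 11 from 99315516 to 99322951, as the deposited table gives them. Genes with a hair keratin or keratin-associated protein symbol together took 0.0408% to 1.34% of counts in the Krt71-high libraries and 0.0012% to 0.00503% in the Krt71-low ones. Apart from Krt75, which is also on the basal and outer sheath list, they are not described further.

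Over all 18389 genes tested, the fit with the wounding group as a covariate called 0 genes between Krt71-high and Krt71-low libraries (0% of genes, edgeR quasi-likelihood test, adjusted p under 0.05). The smallest adjusted p was 0.188. At an unadjusted p under 0.05 there were 1663 genes (9.04%), 906 higher (4.93%) and 757 lower (4.12%) in the Krt71-high libraries. DESeq2 called 151 of 17515 genes (0.862%), 109 higher and 42 lower, and limma-voom called 0. Of the 151, 27 had a hair keratin or keratin-associated (Krtap) symbol. With Krt71 entered as a continuous value in place of 2 classes, edgeR called 85 of the 18389 genes, 42 of them with such a symbol. Predicted genes with Gm names, such as Gm10229 and Gm11563, are not in these symbol counts, whatever they encode. Among list genes DESeq2 called 27, with adjusted p of 2.52e-17 for S100a3, 1.23e-09 for Tchh, 7.35e-09 for Padi3, 1.22e-08 for Foxe1 and 6.15e-07 for Msx2. The others were Prr9, Vsig8, Gprc5d, Dsg4, Dlx2, Tchhl1, Cxcl5, Dlx3, Ltbp2, Padi1, Hoxc13, Corin, Trpm1, Hhip, Lef1, Wnt11, Bambi, Oca2, Gpr143, Mc1r, Sox21 and Tyr. The continuous term called 11 list genes (Tchh, S100a3, Foxe1, Padi3, Dsg4, Prr9, Gprc5d, Msx2, Vsig8, Tchhl1 and Dlx3). With the diabetic wound libraries in the fit, edgeR called 4 list genes, S100a3, Foxe1, Tchh and Padi3. The edgeR class fit called no gene named below, so its fold changes are given with their standard errors as a description, and calls by these other fits are no test either, since Krt71 chose the classes. The median over all genes tested was 0.03 on the log2 scale, so the fold changes are read against a centre near 0.

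Follicle structural genes mostly stood higher in the Krt71-high libraries. Of 25 measured sheath and shaft genes outside the keratins, 22 had a positive log2 fold change and 11 were above 1, beside 52.8% and 5.81% of all genes tested. The 2 classes did not overlap within normal skin or within healthy wound for 8 of the 25 (Tchh, Tchhl1, Padi3, S100a3, Dsg4, Gprc5d, Prr9 and Vsig8), where 2.32% of all genes tested did so in this direction. The median over the 25 was 0.92. As the rule used this contrast, these shares are given without a test.

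Tchh encodes trichohyalin, a matrix protein of the inner root sheath and medulla that is crosslinked as the sheath hardens. It stood at 734, 299.5 and 2108 CPM in Krt71-high skin, 3.61 and 19.7 CPM in Krt71-low skin, 4419.6, 704 and 180.4 CPM in Krt71-high wounds and 21.8 and 7.48 CPM in Krt71-low wounds. Every Krt71-high library lay above every Krt71-low one, as for 1.08% of all genes tested, with a log2 fold change of 6.63 ± 1.15 (SE). Padi3, the enzyme that converts arginines of trichohyalin to citrulline, stood at 20.4, 15.6 and 91.9 CPM in Krt71-high skin, 0.6297 and 0 CPM in Krt71-low skin, 159, 28.7 and 8.89 CPM in Krt71-high wounds and 0.514 and 0.403 CPM in Krt71-low wounds. Its classes were also fully apart, at 7.02 ± 1.14 (SE). S100a3, a calcium-binding protein of the hair cuticle, stood at 27.5, 10.9 and 105 CPM in Krt71-high skin, 0 and 0 CPM in Krt71-low skin, 109.5, 43.2 and 7.52 CPM in Krt71-high wounds and 0.229 and 0.173 CPM in Krt71-low wounds. The 6 high libraries held at least 7.52 CPM and the 4 low ones at most 0.229 CPM, a log2 difference of 8.85 ± 1.23 (SE).

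Prr9, a proline-rich protein gene of the epidermal differentiation complex, stood at 54.8, 27.96 and 161 CPM in Krt71-high skin, 1.14 and 1.27 CPM in Krt71-low skin, 617, 87.98 and 19.2 CPM in Krt71-high wounds and 13.5 and 4.601 CPM in Krt71-low wounds. Healthy wound 1 held 13.5 CPM, close to the 19.2 CPM of the Krt71-high wound 5. Dsg4, the desmosomal cadherin of the hair shaft, stood at 2.42, 1.29 and 21.7 CPM in Krt71-high skin, 0.229 and 0 CPM in Krt71-low skin, 39.7, 6.85 and 0.918 CPM in Krt71-high wounds and 0 and 0 CPM in Krt71-low wounds. Its highest Krt71-low value was 0.229 CPM and its lowest Krt71-high value 0.918 CPM. Gprc5d, an orphan receptor, stood at 8.59, 0.506 and 16.6 CPM in Krt71-high skin, 0 and 0 CPM in Krt71-low skin, 103, 3.45 and 0.115 CPM in Krt71-high wounds and 0.114 and 0 CPM in Krt71-low wounds. Healthy wounds 5 and 1 were almost level for this gene, so its separation there rests on counts near 0, and no fold change is given against 2 counts in all 4 Krt71-low libraries. Vsig8, an immunoglobulin-domain protein, stood at 17.9, 4.67 and 44.6 CPM in Krt71-high skin, 1.43 and 2.04 CPM in Krt71-low skin, 93.4, 24.5 and 6.31 CPM in Krt71-high wounds and 4.92 and 0.748 CPM in Krt71-low wounds, and normal skin 4 lay below healthy wound 1. Its log2 fold change was 3.72 ± 0.90 (SE).

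Tchhl1, a trichohyalin-like gene beside Tchh on chromosome 3, stood at 8.76, 1.12 and 16.4 CPM in Krt71-high skin, 0.343 and 0 CPM in Krt71-low skin, 133, 10.6 and 2.64 CPM in Krt71-high wounds and 0.229 and 1.21 CPM in Krt71-low wounds, a log2 difference of 5.84 ± 1.40 (SE). Padi1, a relative of Padi3 expressed in epidermis and follicle, stood at 4.67, 3.99 and 11.6 CPM in Krt71-high skin, 0.801 and 0 CPM in Krt71-low skin, 38.3, 4.53 and 1.32 CPM in Krt71-high wounds and 1.09 and 2.07 CPM in Krt71-low wounds. Healthy wound 3 lay just above normal skin 4 for Tchhl1, and Padi1 overlapped in healthy wound, with a log2 difference of 3.52 ± 1.03 (SE).

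Other sheath and shaft genes did not follow Krt71. Tgm3, the transglutaminase that crosslinks trichohyalin and also acts in the cornified epidermis, stood at 10.4, 71.5 and 60.6 CPM in Krt71-high skin, 21.8 and 18.2 CPM in Krt71-low skin, 22.4, 69.8 and 50.8 CPM in Krt71-high wounds and 28.6 and 64.6 CPM in Krt71-low wounds. The classes overlapped in both kinds of skin, and healthy wound 2, with the most Krt71, held less Tgm3 than any other healthy wound. Odc1, the ornithine decarboxylase of polyamine synthesis, had a log2 fold change of -0.56 ± 0.23 (SE), and its classes overlapped. The desmosomal genes Pkp1 and Jup, which epidermis and follicle share, stood at 0.94 ± 0.35 (SE) and 0.53 ± 0.26 (SE) on the same scale.

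**Figure D1:**
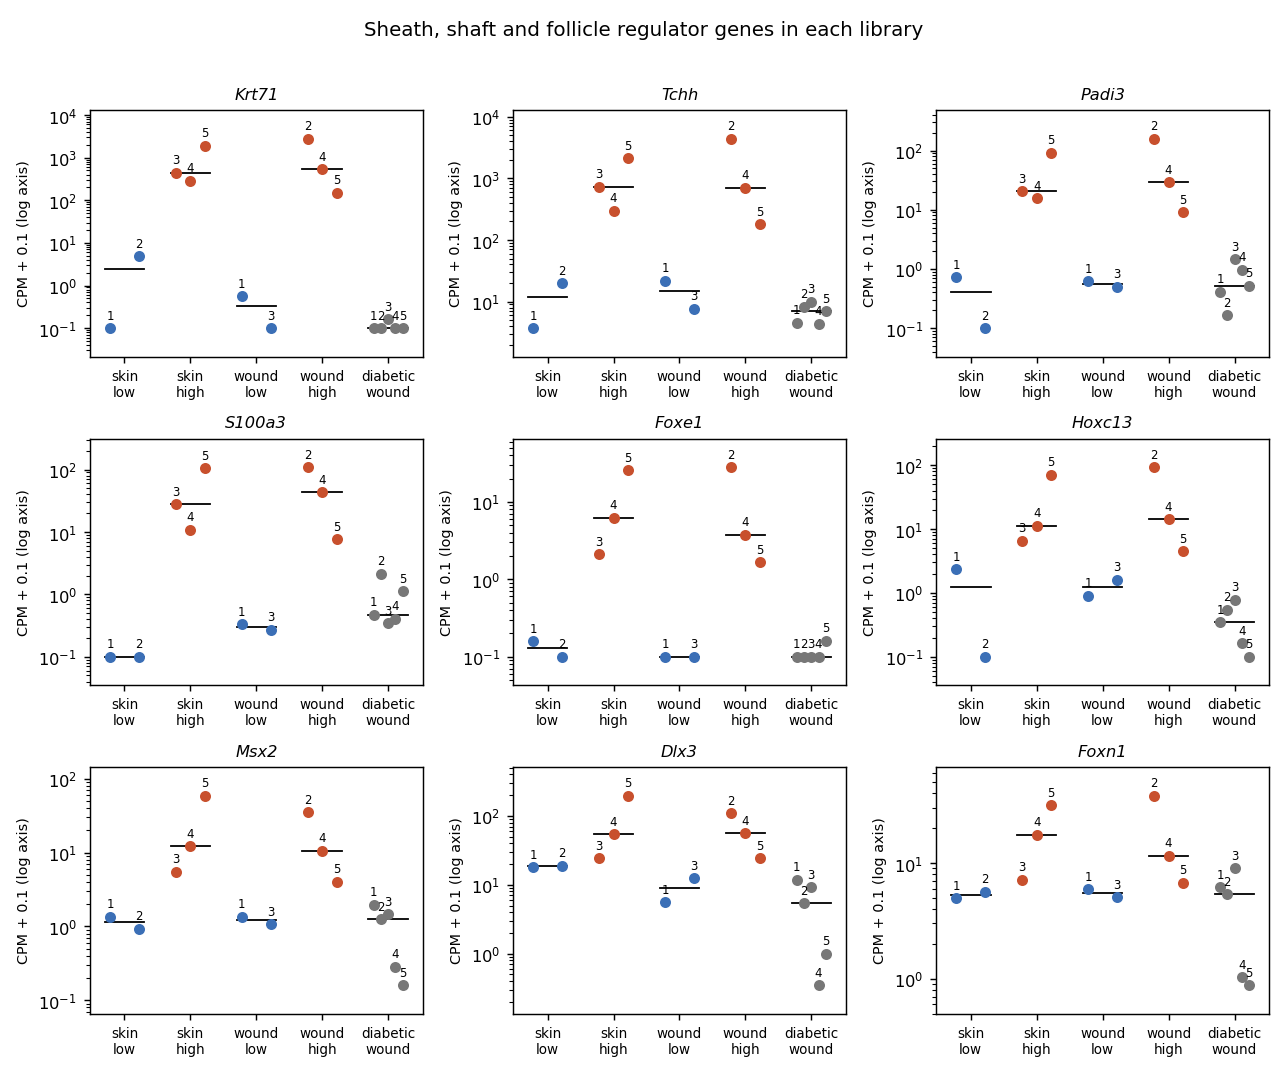
Level of 9 sheath, shaft and follicle regulator genes in each of the 15 libraries, as CPM plus 0.1 on a log axis; points are libraries labelled by replicate number, blue for Krt71-low and red for Krt71-high libraries of normal skin and healthy wound, grey for diabetic wound, and lines are medians. Krt71 has no value between 4.72 and 149 CPM, and Tchh, Padi3 and S100a3 separate the same libraries. In the libraries of healthy mice Foxn1 lies between 4.87 and 38.1 CPM with small gaps between the classes.

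Transcription factors that direct shaft and sheath differentiation showed a graded version of this pattern. Of 26 measured, 23 had a positive log2 fold change, 14 were above 1, and the median was 1.12. Msx2, Dlx3, Dlx2, Hoxc13, Foxn1 and Foxe1 did not overlap between the classes within normal skin or within healthy wound, and none of the 26 did so in the opposite direction. Of all genes tested, 2.32% were higher and 1.46% lower in this way.

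Hoxc13, the homeobox factor that drives hair keratin genes, stood at 6.399, 11.2 and 70.8 CPM in Krt71-high skin, 2.23 and 0 CPM in Krt71-low skin, 93.3, 14.1 and 4.42 CPM in Krt71-high wounds and 0.8003 and 1.495 CPM in Krt71-low wounds. All 6 Krt71-high libraries held at least 4.42 CPM and no Krt71-low library more than 2.23 CPM. Foxn1, the forkhead factor whose loss makes nude mice, stood at 7.09, 17.4 and 31.3 CPM in Krt71-high skin, 4.87 and 5.54 CPM in Krt71-low skin, 38.1, 11.5 and 6.66 CPM in Krt71-high wounds and 5.83 and 4.95 CPM in Krt71-low wounds. The gap was small, from 5.83 CPM in healthy wound 1 to 6.66 CPM in healthy wound 5, with a log2 fold change of 1.77 ± 0.52 (SE). Msx2, a homeobox factor of the matrix that lies upstream of Foxn1 in mouse follicles, stood at 5.36, 12.1 and 58.8 CPM in Krt71-high skin, 1.26 and 0.828 CPM in Krt71-low skin, 34.8, 10.5 and 3.902 CPM in Krt71-high wounds and 1.26 and 0.978 CPM in Krt71-low wounds. It separated the classes more widely, at 4.16 ± 0.84 (SE). Dlx3, a homeobox factor needed for shaft and sheath formation, stood at 24.2, 54.1 and 196 CPM in Krt71-high skin, 17.9 and 18.9 CPM in Krt71-low skin, 108, 55.96 and 24.2 CPM in Krt71-high wounds and 5.49 and 12.4 CPM in Krt71-low wounds, a log2 difference of 2.49 ± 0.61 (SE). Dlx2, its relative, stood at 0.9800, 3.77 and 12.4 CPM in Krt71-high skin, 0.401 and 0 CPM in Krt71-low skin, 4.82, 1.47 and 0.861 CPM in Krt71-high wounds and 0.171 and 0.2300 CPM in Krt71-low wounds. Foxe1, a forkhead factor of the lower follicle, stood at 2.02, 6.13 and 25.4 CPM in Krt71-high skin, 0.0572 and 0 CPM in Krt71-low skin, 28.01, 3.68 and 1.55 CPM in Krt71-high wounds and 0 and 0 CPM in Krt71-low wounds. The 4 Krt71-low libraries held 1 Foxe1 count in all against 1141 in the 6 Krt71-high ones.

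Lef1, the partner of beta-catenin in matrix and precortex cells, overlapped in normal skin. It stood at 2.48, 5.51 and 27.8 CPM in Krt71-high skin, 0.859 and 4.59 CPM in Krt71-low skin, 9.76, 9.22 and 2.64 CPM in Krt71-high wounds and 0.743 and 0.403 CPM in Krt71-low wounds. Normal skin 3, Krt71-high, held less Lef1 than normal skin 2, Krt71-low, and the log2 fold change was 2.72 ± 0.82 (SE). Sox9, a factor of the outer root sheath and the stem cell bulge, stood at 15.4, 12.5 and 37.6 CPM in Krt71-high skin, 19.9 and 39.6 CPM in Krt71-low skin, 212, 15.1 and 18.4 CPM in Krt71-high wounds and 12.6 and 18.2 CPM in Krt71-low wounds. Healthy wound 2 was far above every other library, and the other 5 Krt71-high libraries lay at 12.5 to 37.6 CPM beside 12.6 to 39.6 CPM in the Krt71-low ones. Gata3, an inner root sheath regulator, stood at 0.39 ± 0.40 (SE) on the log2 scale with overlapping classes. Trps1, Cux1 and Prdm1 lay within 0.1 of 0, at -0.03 ± 0.22 (SE), 0.04 ± 0.24 (SE) and 0.09 ± 0.21 (SE).

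Other regulators on the list lay between these extremes. Vdr, the vitamin D receptor that follicles need to cycle, stood at 36.1, 74.5 and 154 CPM in Krt71-high skin, 35.9 and 75.4 CPM in Krt71-low skin, 314, 78.2 and 43.03 CPM in Krt71-high wounds and 31.2 and 46.5 CPM in Krt71-low wounds, a log2 difference of 1.19 ± 0.61 (SE). Its classes overlapped in both kinds of skin. Irx4, an Iroquois homeobox gene, stood at 3.46, 6.300 and 16.02 CPM in Krt71-high skin, 5.896 and 2.36 CPM in Krt71-low skin, 53.4, 13.7 and 11.1 CPM in Krt71-high wounds and 2.001 and 5.35 CPM in Krt71-low wounds. Its log2 difference was 1.83 ± 0.69 (SE), close to the 1.60 ± 0.45 (SE) of Sox21, a factor of the hair cuticle. Lhx2, a LIM homeobox factor of the bulge, stood at 1.46 ± 0.71 (SE) and Elf5, an ETS factor, at 1.24 ± 0.69 (SE). Runx1, a factor of follicle stem cell activation that blood cells also express, stood at 86.2, 26.3 and 31.98 CPM in Krt71-high skin, 162 and 69.01 CPM in Krt71-low skin, 195, 66.3 and 98.8 CPM in Krt71-high wounds and 108 and 147 CPM in Krt71-low wounds. It was among the 3 genes with a negative value, at -0.73 ± 0.46 (SE).

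Signalling genes of the growing follicle separated the libraries less. In the Hedgehog pathway 12 of 15 genes had a positive log2 fold change with a median of 0.29, and the classes were fully apart in both kinds of skin for 0 of them. Shh, the ligand made by matrix cells, stood at 3.63, 4.28 and 20.3 CPM in Krt71-high skin, 1.83 and 0 CPM in Krt71-low skin, 1.21, 6.28 and 1.55 CPM in Krt71-high wounds and 1.03 and 2.07 CPM in Krt71-low wounds. Normal skin 5 held the most, and healthy wound 2, with the most Krt71, held less Shh than the Krt71-low wound 3. Gli1, a transcriptional target of the pathway, stood at 10.7, 14.1 and 34.5 CPM in Krt71-high skin, 7.96 and 6.31 CPM in Krt71-low skin, 10.96, 10.98 and 5.11 CPM in Krt71-high wounds and 5.89 and 6.27 CPM in Krt71-low wounds, a log2 difference of 0.96 ± 0.37 (SE). Hhip, a ligand-binding inhibitor that is itself a target, stood at 2.36, 14.3 and 37.2 CPM in Krt71-high skin, 1.32 and 4.33 CPM in Krt71-low skin, 2.12, 8.15 and 3.500 CPM in Krt71-high wounds and 0.8003 and 0.6901 CPM in Krt71-low wounds. Its log2 difference was 2.58 ± 0.73 (SE), with normal skin 3 below normal skin 2. The receptor Ptch1 stood at 0.57 ± 0.28 (SE) on the log2 scale, and its range was 31.6 to 128 CPM in Krt71-high against 29.9 to 48.2 CPM in Krt71-low libraries.

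Of 31 Wnt pathway genes, 28 had a positive log2 fold change, 8 were above 1, and the median was 0.42. Wnt11 and Ctnnb1 were the 2 whose classes did not overlap in either kind of skin, where 2.32% of all genes tested were higher in this way. Wnt11, a ligand found in the follicle and dermis, stood at 8.53, 11.8 and 35.8 CPM in Krt71-high skin, 7.67 and 1.402 CPM in Krt71-low skin, 23.99, 10.6 and 7.92 CPM in Krt71-high wounds and 2.46 and 4.26 CPM in Krt71-low wounds, a log2 difference of 2.01 ± 0.57 (SE). All 6 high libraries held at least 7.92 CPM, just above the 7.67 CPM of normal skin 1. Ctnnb1, beta-catenin itself, stood at 402, 473 and 621 CPM in Krt71-high skin, 393 and 319.9 CPM in Krt71-low skin, 761, 543 and 501 CPM in Krt71-high wounds and 497 and 449 CPM in Krt71-low wounds, a small difference of 0.38 ± 0.17 (SE) on the log2 scale. Wnt10b, a ligand linked to the onset of growth, stood at 6.05, 6.47 and 15.8 CPM in Krt71-high skin, 8.42 and 1.08 CPM in Krt71-low skin, 2.698, 3.79 and 8.26 CPM in Krt71-high wounds and 1.03 and 0.748 CPM in Krt71-low wounds, and normal skin 1 lay above normal skin 3 and 4. Wnt5a, a non-canonical ligand expressed in the papilla and matrix, stood at 17.4, 32.3 and 79.7 CPM in Krt71-high skin, 21.8 and 19.6 CPM in Krt71-low skin, 38.8, 59.9 and 62.1 CPM in Krt71-high wounds and 21.4 and 23.1 CPM in Krt71-low wounds. It was apart in the wounds only, at 1.12 ± 0.36 (SE) over both. The feedback gene Axin2 stood at 0.59 ± 0.30 (SE) and Sostdc1, a secreted Wnt and BMP antagonist, at 1.16 ± 0.38 (SE).

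BMP and activin genes showed no common direction, with 13 of 24 positive and a median of 0.02. Bmp6, Bmp7 and Bambi were higher without overlap in both kinds of skin and Fst was lower without overlap. Over all genes tested, 2.32% were higher and 1.46% lower in this way. Bambi, a decoy receptor for BMP and TGF-beta ligands, stood at 6.17, 6.02 and 25.5 CPM in Krt71-high skin, 2.81 and 0.573 CPM in Krt71-low skin, 20.1, 13.7 and 10.8 CPM in Krt71-high wounds and 5.26 and 6.73 CPM in Krt71-low wounds, a log2 difference of 1.99 ± 0.59 (SE). Bmp6, a ligand expressed in differentiating keratinocytes and follicles, stood at 14.7, 11.5 and 13.8 CPM in Krt71-high skin, 8.87 and 9.75 CPM in Krt71-low skin, 10.96, 8.88 and 8.55 CPM in Krt71-high wounds and 7.32 and 6.21 CPM in Krt71-low wounds and differed by 0.47 ± 0.17 (SE). Fst encodes follistatin, which binds activin and BMPs, and stood at 26.7, 26.8 and 20.7 CPM in Krt71-high skin, 32.3 and 37.98 CPM in Krt71-low skin, 27.03, 21.3 and 22.6 CPM in Krt71-high wounds and 28.5 and 95.4 CPM in Krt71-low wounds. Every Krt71-high library lay below every Krt71-low one, as for 0.375% of all genes tested, at -0.997 ± 0.31 (SE). Without healthy wound 3 the difference was -0.43. Bmp2 and Bmp4, whose signals hold resting follicles in telogen, differed by 0.01 ± 0.20 (SE) and -0.06 ± 0.46 (SE). The antagonist Nog stood at 1.77 to 12.3 CPM in Krt71-low and 0.516 to 5.22 CPM in Krt71-high libraries.

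Growth factors that time the cycle showed no common direction. Of 29 genes of the FGF, EDA and Notch group, 14 were positive, with a median of -0.01, and 0 were apart in both kinds of skin. Fgf5, which ends the growth phase in mice, stood at 0.865, 0.619 and 1.77 CPM in Krt71-high skin, 0.515 and 0.446 CPM in Krt71-low skin, 5.28, 1.13 and 0.172 CPM in Krt71-high wounds and 0.8003 and 2.47 CPM in Krt71-low wounds. Healthy wound 2 held the most and healthy wound 5 the least, so the classes overlapped in healthy wound. Fgf18, a ligand of resting follicles, stood at 3.52, 3.54 and 3.17 CPM in Krt71-high skin, 3.55 and 3.95 CPM in Krt71-low skin, 1.49, 1.92 and 3.73 CPM in Krt71-high wounds and 1.26 and 2.82 CPM in Krt71-low wounds, with a log2 difference of 0.01 ± 0.36 (SE) and a gap of under 0.1 CPM between the classes in normal skin. Fgf7, made by the dermal papilla, differed by -0.01 ± 0.31 (SE). Fgfr3 was higher at 0.99 ± 0.38 (SE) and Igfbp5, a binding protein of insulin-like growth factors, lower at -0.76 ± 0.30 (SE), both with overlap in at least 1 kind of skin.

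Pigment genes varied among the Krt71-high libraries themselves. Of 22 melanocyte genes, 17 were positive, 12 were above 1 and the median was 1.48, the highest of the 24 lists, though with muscle level in the fit several of these differences were near 0, as given with the muscle genes. Gpr143, Trpm1, Slc24a5 and Mc1r did not overlap in either kind of skin, where 2.32% of all genes tested were higher in this way. Tyr, the tyrosinase that begins melanin synthesis, stood at 2.13, 4.39 and 26.9 CPM in Krt71-high skin, 0.744 and 0.637 CPM in Krt71-low skin, 0.344, 7.299 and 1.55 CPM in Krt71-high wounds and 0.286 and 0.978 CPM in Krt71-low wounds. Healthy wound 2 lay among the Krt71-low libraries for Tyr, although its Krt71 level was the highest of all. Dct, a later enzyme of the same pathway, stood at 11.99, 29.5 and 127 CPM in Krt71-high skin, 7.21 and 18.7 CPM in Krt71-low skin, 4.94, 29.9 and 10.4 CPM in Krt71-high wounds and 3.66 and 5.46 CPM in Krt71-low wounds, and Tyrp1 at 5.36, 19.01 and 91.7 CPM in Krt71-high skin, 5.21 and 4.84 CPM in Krt71-low skin, 2.53, 26.5 and 6.31 CPM in Krt71-high wounds and 1.31 and 3.85 CPM in Krt71-low wounds. Healthy wound 2 again lay among the low libraries in both. Pmel, the fibril protein on which melanin is laid down, ran from 3.44 to 89.9 CPM in the Krt71-high and from 1.31 to 7.26 CPM in the Krt71-low libraries. Trpm1, a cation channel gene that hosts a pigment-cell microRNA, stood at 4.67, 9.56 and 51.1 CPM in Krt71-high skin, 1.603 and 1.78 CPM in Krt71-low skin, 2.07, 10.4 and 2.93 CPM in Krt71-high wounds and 0.915 and 1.73 CPM in Krt71-low wounds, a log2 difference of 2.74 ± 0.80 (SE). The lineage genes Mitf, Sox10 and Kit, which pigment cells need in all phases, stood at -0.14 ± 0.21 (SE), -0.47 ± 0.41 (SE) and -0.36 ± 0.23 (SE) on the log2 scale. All 3 overlapped in normal skin, and Krt71-high wounds held less Sox10 and Kit than Krt71-low wounds.

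**Figure D2:**
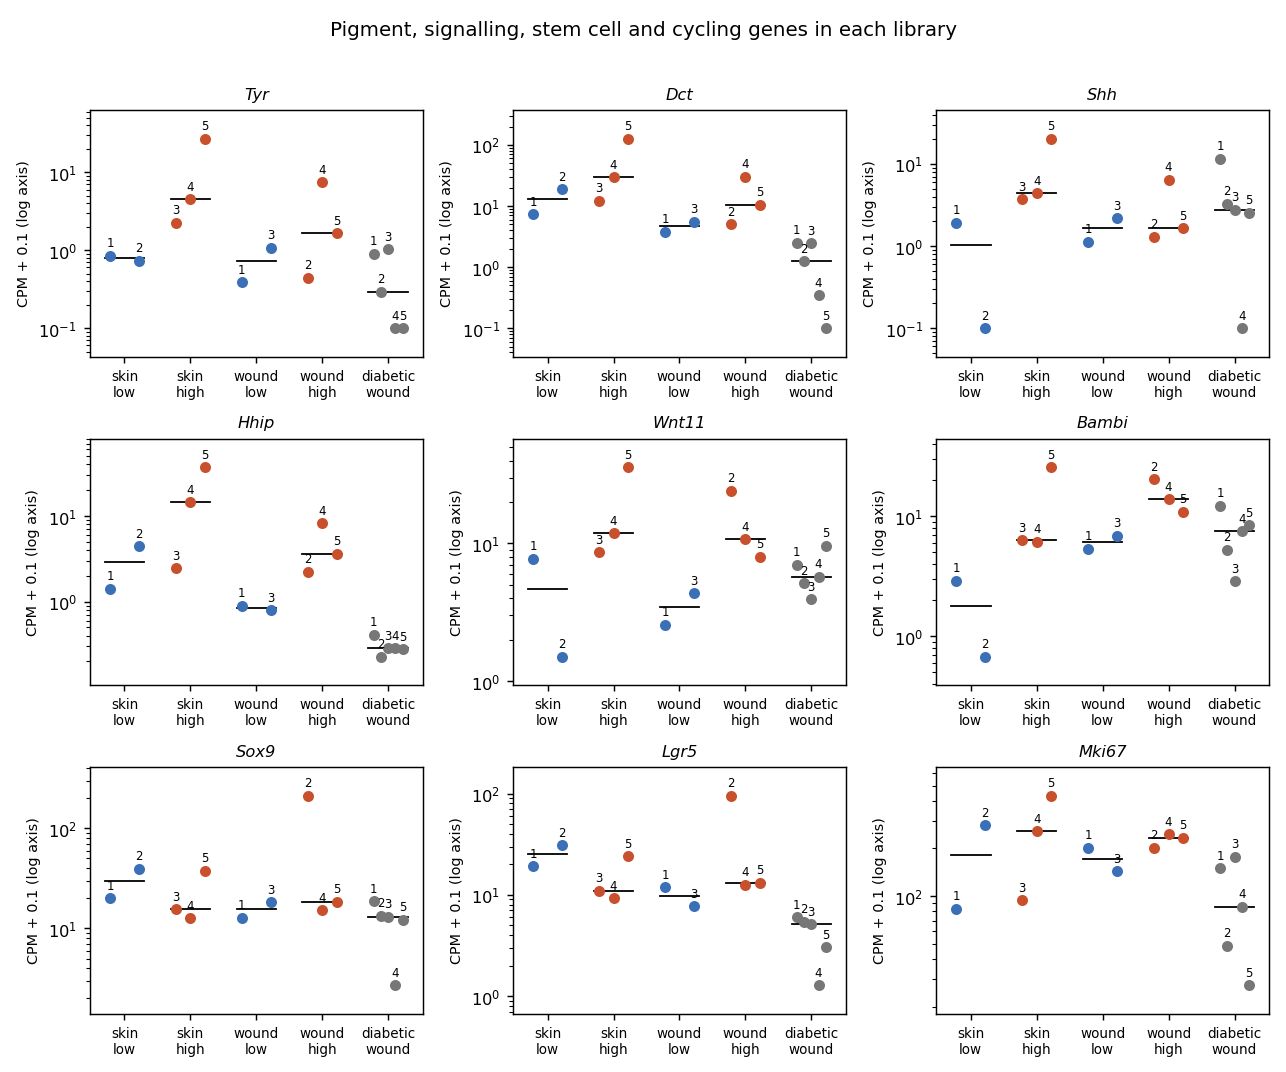
Level of 9 pigment, signalling, stem cell and cycling genes in each of the 15 libraries, as CPM plus 0.1 on a log axis; points are libraries labelled by replicate number, blue for Krt71-low, red for Krt71-high, grey for diabetic wound, and lines are medians. Healthy wound 2 holds 0.344 CPM of Tyr and 1.21 CPM of Shh but 212 CPM of Sox9 and 95.2 CPM of Lgr5, while normal skin 5 holds 26.9 CPM of Tyr and 20.3 CPM of Shh.

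The 2 libraries with the most Krt71 differed from each other. Healthy wound 2 held 2805 CPM of Krt71 and normal skin 5 held 1895 CPM. Normal skin 5 had Tyr at 26.9, Shh at 20.3, Hhip at 37.2 and Mki67 at 431 CPM, where healthy wound 2 had 0.344, 1.21, 2.12 and 202 CPM. Healthy wound 2 instead had Lgr5 at 95.2, Sox9 at 212, Krt17, an outer root sheath keratin, at 4023, Cst6, a cysteine protease inhibitor, at 3058 and Hr, the hairless corepressor, at 1089.5 CPM. In normal skin 5 those 5 genes stood at 23.8, 37.6, 1056, 309 and 465 CPM. These genes were picked after their values were seen, and 1 library against 1 gives no test.

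Dermal papilla genes had 10 positive of 22, with a median of -0.02 and 8 above 1. Corin, a papilla protease, stood at 1.04, 6.81 and 9.87 CPM in Krt71-high skin, 0.744 and 1.34 CPM in Krt71-low skin, 11.4, 1.87 and 1.95 CPM in Krt71-high wounds and 0.343 and 0 CPM in Krt71-low wounds and overlapped in normal skin, where normal skin 3 lay below normal skin 2. Rspo2, an R-spondin that amplifies Wnt signals, stood at 0.749, 2.14 and 5.91 CPM in Krt71-high skin, 0.114 and 0 CPM in Krt71-low skin, 0, 1.301 and 0.861 CPM in Krt71-high wounds and 0.457 and 0.345 CPM in Krt71-low wounds. Wif1, a secreted Wnt inhibitor, had a log2 difference of 1.67 ± 0.67 (SE) and Scube3, a secreted papilla protein, of 1.21 ± 0.56 (SE). Alx4, a homeobox factor of the papilla, stood at 1.87 ± 0.56 (SE) and Cntfr, a cytokine receptor subunit, at 1.96 ± 0.65 (SE) on the log2 scale. Follicle stem cell genes had 8 positive of 14 and a median of 0.00. Lgr5, the receptor that marks cycling follicle stem cells, stood at 10.8, 9.11 and 23.8 CPM in Krt71-high skin, 19.1 and 30.9 CPM in Krt71-low skin, 95.2, 12.5 and 13.03 CPM in Krt71-high wounds and 11.8 and 7.59 CPM in Krt71-low wounds. Its log2 fold change of 0.43 ± 0.80 (SE) became -0.31 without healthy wound 2. Cd34, a bulge stem cell marker that vessels and fibroblasts also express, stood at 0.17 ± 0.32 (SE). Nfatc1, which keeps bulge cells at rest, was lower at -0.55 ± 0.16 (SE), and Npnt, the bulge matrix ligand for the arrector pili muscle, at -1.18 ± 0.39 (SE). Classes were apart in both kinds of skin for 1 of the 14 stem cell list genes, lower in Krt71-high libraries, as for 1.46% of all genes tested. This was Ltbp2, a latent TGF-beta binding protein. It stood at 5.76, 5.01 and 5.79 CPM in Krt71-high skin, 17.6 and 44.6 CPM in Krt71-low skin, 81.4, 53.6 and 53.02 CPM in Krt71-high wounds and 92.5 and 104 CPM in Krt71-low wounds, with a log2 difference of -1.65 ± 0.40 (SE) that was -1.09 without normal skin 2.

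Cycling genes did not separate the classes. All 30 measured had a positive log2 fold change, with a median of 0.43, but 1 was above 1 and 0 were apart in both kinds of skin. Within normal skin the median of the 30 was 0.95 and within healthy wound it was -0.03. Mki67, a marker of dividing cells, stood at 94.3, 256 and 431 CPM in Krt71-high skin, 82.8 and 281 CPM in Krt71-low skin, 202, 246 and 234 CPM in Krt71-high wounds and 202 and 143 CPM in Krt71-low wounds. Normal skin 2, Krt71-low, lay above normal skin 3 and 4, and the log2 fold change was 0.41 ± 0.41 (SE). Cdc20, which activates the anaphase-promoting complex, stood at 14.8, 56.6 and 76.03 CPM in Krt71-high skin, 11.3 and 7.65 CPM in Krt71-low skin, 32.1, 53.6 and 39.9 CPM in Krt71-high wounds and 41.8 and 34.9 CPM in Krt71-low wounds with a log2 difference of 1.12 ± 0.54 (SE), and Cdk1 differed by 0.84 ± 0.40 (SE). Both overlapped in the wounds. Since Krt71 is itself a sheath gene, the separation of other sheath genes is no check of a growing and a resting state. Mki67, Shh, Fgf5, Fgf18, Bmp2 and Bmp4 all overlapped in at least 1 kind of skin, as did all but 8 of the 25 sheath genes and all but 6 of the 26 transcription factors, and the libraries are named by Krt71 alone.

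Epidermal genes varied widely among the libraries. Of 14 basal and outer sheath keratinocyte genes, 11 were positive with a median of 0.62, and of 24 cornified genes 19 were positive with a median of 0.30. Krt5 and Krt14, the keratin pair of basal cells, stood at 1396, 4850.5 and 5627 CPM in Krt71-high skin, 1923 and 2370.4 CPM in Krt71-low skin, 4529, 3034 and 2559.7 CPM in Krt71-high wounds and 1189.6 and 1541 CPM in Krt71-low wounds and at 1648, 7754 and 6507 CPM in Krt71-high skin, 2177 and 2272 CPM in Krt71-low skin, 6795, 7429 and 9067 CPM in Krt71-high wounds and 3922 and 4956 CPM in Krt71-low wounds, respectively. The log2 differences were 1.05 ± 0.37 (SE) and 0.997 ± 0.39 (SE), with normal skin 3 below normal skin 1 and 2 in both. Krt75, a keratin of the companion layer, did not overlap in either kind of skin, at 23.98, 24.1 and 201 CPM in Krt71-high skin, 8.13 and 23.6 CPM in Krt71-low skin, 246, 34.97 and 12.6 CPM in Krt71-high wounds and 10.9 and 5.41 CPM in Krt71-low wounds. It was also counted among the hair keratin genes above, so its separation is no separate result about the epidermis. The summed basal and outer sheath genes came to 4064 CPM in normal skin 3 and to 16856 to 22923 CPM in the other Krt71-high libraries, beside 5152 to 12692 CPM in the Krt71-low ones. The summed cornified genes ran from 5698 CPM in healthy wound 2 to 44648 CPM in normal skin 5. The part of keratinocyte content in the follicle gene differences was not tested.

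Sebaceous gland genes had 5 positive of 16, with a median of -0.06. Classes were apart in both kinds of skin for 1 of the 16, where 2.32% of all genes tested were higher in this way. Dgat2l6, an acyltransferase of the gland, was apart in both kinds of skin at 11.1, 9.23 and 10.97 CPM in Krt71-high skin, 6.24 and 3.57 CPM in Krt71-low skin, 3.85, 15.8 and 4.42 CPM in Krt71-high wounds and 1.94 and 2.53 CPM in Krt71-low wounds, a log2 difference of 1.41 ± 0.44 (SE). Awat1, a wax synthase, stood at 1.02 ± 0.44 (SE) with overlap in both kinds of skin. Adipocyte genes had 8 positive of 28 and a median of -0.24, none of them beyond 1 in either direction. Adipoq, the adiponectin gene, stood at 177, 85.2 and 85.7 CPM in Krt71-high skin, 180.1 and 121 CPM in Krt71-low skin, 73.7, 60.1 and 20.1 CPM in Krt71-high wounds and 62.6 and 73.1 CPM in Krt71-low wounds. The classes overlapped in healthy wound, as they did for Lep at -0.18 ± 0.53 (SE), Pparg at -0.37 ± 0.21 (SE) and Car3 at -0.67 ± 0.39 (SE).

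Skeletal muscle genes stood lower in the Krt71-high libraries by their fitted differences, and neither the edgeR class fit nor DESeq2 called a gene of the list. Outside the list, DESeq2 called muscle genes lower, among them Tnni1, Myh3 and Tnnt1. Their log2 differences were -3.12, -3.715 and -2.69 (DESeq2 adjusted p 1.19e-07, 2.4e-06 and 0.00108). These genes were picked from the DESeq2 calls, and neither the edgeR class fit nor limma-voom called any gene. The DESeq2 calls are no test, since Krt71 chose the classes. All 20 skeletal muscle genes tested had a negative log2 fold change and 18 were below -1, beside 47.2% and 4.83% of all genes tested, and the median was -1.19. Myh4, Myl1, Ryr1, Casq1 and Pygm did not overlap in either kind of skin, where 1.46% of all genes tested were lower in this way. Acta1, skeletal muscle actin, stood at 10502, 4091 and 1455 CPM in Krt71-high skin, 10811 and 10734 CPM in Krt71-low skin, 4052, 558 and 532 CPM in Krt71-high wounds and 3050.3 and 5148 CPM in Krt71-low wounds. It overlapped in healthy wound, at -1.17 ± 0.65 (SE). Myl1, a fast myosin light chain, stood at 859.9, 828 and 275 CPM in Krt71-high skin, 1057 and 1478 CPM in Krt71-low skin, 276, 132 and 111 CPM in Krt71-high wounds and 299.9 and 459 CPM in Krt71-low wounds, a log2 difference of -1.08 ± 0.36 (SE). Casq1 and Pygm, the calcium store protein and glycogen phosphorylase of muscle, differed by -1.14 ± 0.41 (SE) and -1.39 ± 0.51 (SE). The summed list came to 2079 to 32911 CPM in Krt71-high and 9285 to 44800 CPM in Krt71-low libraries. These ranges overlapped, and healthy wound 2, with the most Krt71, held 10884 CPM against 9285 CPM in healthy wound 1. A fit with the mean log2 CPM of the list as a covariate also called 0 genes between the classes. In that fit the log2 differences of Tchh, Padi3, S100a3, Hoxc13 and Msx2 were 6.98, 7.24, 8.71, 4.98 and 3.84, beside 6.63, 7.02, 8.85, 4.79 and 4.16 without the covariate. Differences of pigment genes were smaller with it, at 0.24 for Tyr, 0.005 for Pmel, 0.70 for Trpm1, -0.21 for Tyrp1 and -0.27 for Dct, beside 3.05, 2.35, 2.74, 2.50 and 1.86. Those of signalling and cycling genes were smaller too, at 0.44 for Shh, 0.69 for Hhip, 0.14 for Wnt5a, 0.23 for Cdc20 and -0.33 for Mki67, beside 2.005, 2.58, 1.12, 1.12 and 0.41. Of 13 smooth and arrector pili muscle genes, 2 were positive and the median was -0.65, with Myocd, the smooth muscle coactivator, at -1.16 ± 0.45 (SE). Des, which skeletal muscle also expresses, is on that list.

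**Figure D3:**
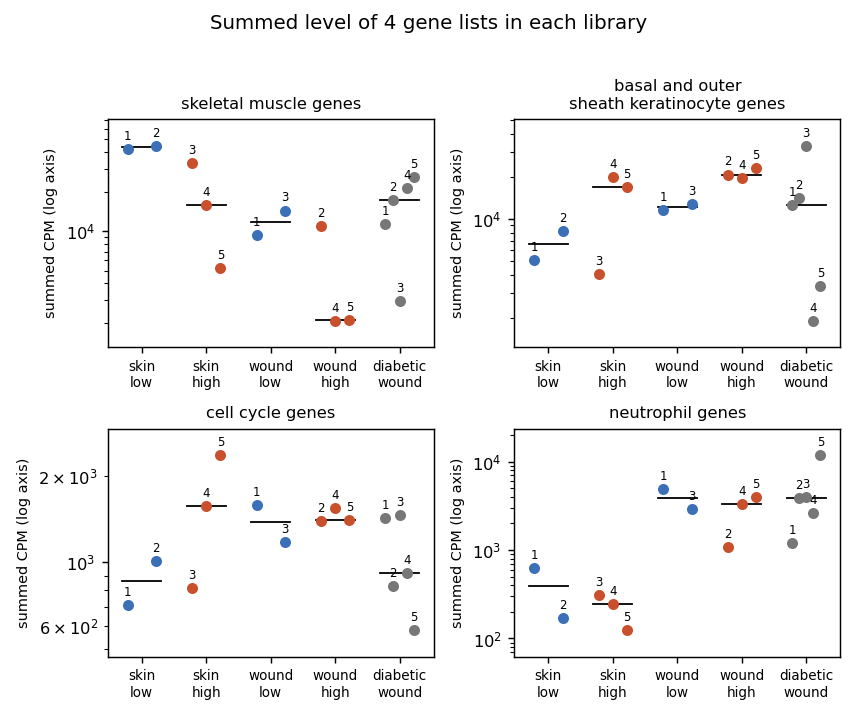
Summed CPM of 4 gene lists in each of the 15 libraries on a log axis; points are libraries labelled by replicate number, blue for Krt71-low, red for Krt71-high, grey for diabetic wound, and lines are medians. Skeletal muscle runs from 2079 to 44800 CPM over the 10 libraries of healthy mice, and normal skin 3 holds 4064 CPM of the basal keratinocyte list beside 16856 CPM or more in the other Krt71-high libraries.

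The immune lists did not share a direction. Of 17 neutrophil genes, 2 were positive and 8 were below -1, beside 52.8% and 4.83% of all genes tested. Their median was -0.81, with a median of -1.20 within normal skin and -0.40 within healthy wound. Cxcl5, a neutrophil-attracting chemokine, was apart in both kinds of skin, at 0.115, 0 and 0 CPM in Krt71-high skin, 0.172 and 0.446 CPM in Krt71-low skin, 41.8, 16.4 and 44.6 CPM in Krt71-high wounds and 98.8 and 309 CPM in Krt71-low wounds. Cxcl5 was the 1 neutrophil list gene lower in this way, as were 1.46% of all genes tested. Its normal skin values rest on 7 counts or fewer per library. S100a8 and S100a9, the subunits of calprotectin, stood at 79.3, 35.2 and 12.00 CPM in Krt71-high skin, 161 and 27.1 CPM in Krt71-low skin, 366, 495 and 703 CPM in Krt71-high wounds and 1668 and 798 CPM in Krt71-low wounds and at 40.2, 50.8 and 15.2 CPM in Krt71-high skin, 129 and 29.1 CPM in Krt71-low skin, 320.4, 827 and 1106 CPM in Krt71-high wounds and 1988 and 760.1 CPM in Krt71-low wounds, respectively. Krt71-high wounds lay below Krt71-low wounds for S100a8, and the classes overlapped in normal skin. The log2 differences of -1.20 ± 0.55 (SE) and -1.02 ± 0.52 (SE) were -0.63 and -0.46 without normal skin 1. The monocyte and macrophage list had 7 positive of 17 and a median of -0.18, with Ly6c2 at -1.61 ± 0.64 (SE) and Cx3cr1, the fractalkine receptor, at -1.28 ± 0.46 (SE). T cell genes had 13 positive of 17 and a median of 0.43 at levels of at most 32.2 CPM. Mast cell genes had 3 positive of 12 and a median of -0.18.

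The remaining lists had medians from -0.39 to 0.00, the lowest for endothelial genes. Of all genes tested, 52.8% were positive. Collagen and matrix genes had 12 positive of 24 and a median of 0.00. Col1a1, the main chain of type I collagen, stood at -0.31 ± 0.42 (SE) and Tnc, the tenascin of remodelling matrix, at 49.3, 62.6 and 90.1 CPM in Krt71-high skin, 129.8 and 578 CPM in Krt71-low skin, 455, 934 and 1556 CPM in Krt71-high wounds and 742 and 2623 CPM in Krt71-low wounds. The Tnc log2 difference was -1.68 ± 0.59 (SE), with overlap in healthy wound, and -0.87 without normal skin 2. Endothelial genes had 4 positive of 20 and a median of -0.39, and Angpt2, a vessel-destabilising ligand, was apart in both kinds of skin at 6.92, 6.08 and 1.401 CPM in Krt71-high skin, 9.45 and 7.33 CPM in Krt71-low skin, 15.1, 29.5 and 26.1 CPM in Krt71-high wounds and 30.4 and 38.01 CPM in Krt71-low wounds. Angpt2 was the 1 endothelial list gene lower in this way, as were 1.46% of all genes tested. Vegfa, the main vessel growth factor, differed by 0.24 ± 0.33 (SE). Schwann cell genes had 6 positive of 13 and a median of -0.06. Clock genes had 6 positive of 19 and a median of -0.16, with values from -0.83 to 0.80. Per1 stood at -0.80, Ciart at 0.80, Per2 at -0.46 ± 0.42 (SE) and Dbp at 0.24 ± 0.22 (SE). Classes were apart in both kinds of skin for 0 of the 19.

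**Figure D4:**
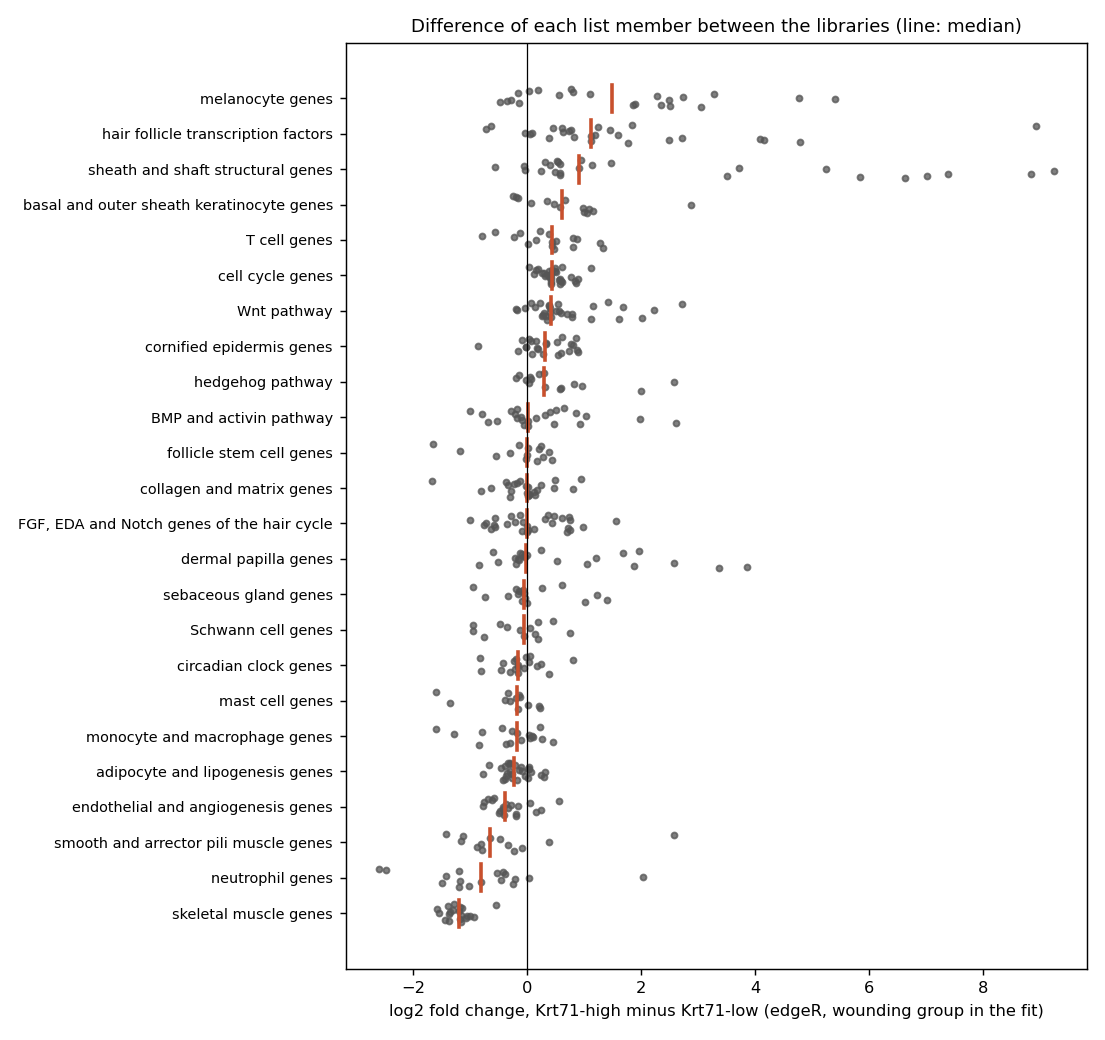
Log2 fold change, Krt71-high minus Krt71-low libraries, of each tested member of 24 gene lists (grey points) with the list median (orange line), from the edgeR fit with the wounding group as a covariate. Medians run from -1.19 for skeletal muscle to 1.48 for melanocyte genes, with the cell cycle list wholly above 0 and the skeletal muscle list wholly below 0.

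By rank across the 10 libraries, 10 genes followed Krt71 most closely among those with a mean of at least 10 CPM and a symbol not beginning with Krt. Their Spearman correlations with Krt71 are a description with no p, since Krt71 chose the libraries and all points share depth and scaling. Crym, a thyroid hormone-binding crystallin, reached 0.997 and stood at 13.7, 3.94 and 29.2 CPM in Krt71-high skin, 0.401 and 2.04 CPM in Krt71-low skin, 61.8, 14.8 and 3.902 CPM in Krt71-high wounds and 0.686 and 0.575 CPM in Krt71-low wounds. Tchh reached 0.973. Rab34, a small GTPase of ciliary vesicles, reached 0.967 with a narrow span, 45.7, 41.9 and 55.6 CPM in Krt71-high skin, 31.1 and 35.4 CPM in Krt71-low skin, 57.6, 51.7 and 45.5 CPM in Krt71-high wounds and 33.4 and 34.9 CPM in Krt71-low wounds. It was apart in both kinds of skin at a log2 difference of 0.52 ± 0.13 (SE), an order without a large change. Calhm4, a member of a channel family, reached 0.966 at 9.28, 1.97 and 31.7 CPM in Krt71-high skin, 0 and 0 CPM in Krt71-low skin, 71.6, 12.8 and 1.09 CPM in Krt71-high wounds and 0.0572 and 0 CPM in Krt71-low wounds. Its 4 low libraries held 1 count in all. Prr9 reached 0.954, Gprc5d 0.954, Foxn1 0.948, S100a3 0.942 and Vsig8 0.936. Gm49425, a model on chromosome 15 from 101515920 to 101517261, reached 0.948 and lies on the chromosome of Krt71, near the coordinates given above for that gene. It was kept by its symbol alone, and whether it is a keratin gene was not examined. Its symbol is a predicted-gene name and its level is uncertain where a near-identical gene could share its reads.

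The difference between Krt71-high and Krt71-low libraries could be estimated separately in normal skin and in healthy wound, which share no library. Across the 18389 genes the 2 estimates had a Pearson correlation of 0.47 and a Spearman correlation of 0.177, given without a test because genes are not independent. Krt71 set the classes in both kinds of skin, and hair keratin genes are among the 18389. A shared direction of follicle genes is therefore no separate support. The sign was shared by 10364 genes (56.4%). Among list genes, 22 of 25 sheath and shaft genes, 20 of 26 transcription factors, 19 of 22 melanocyte genes and 19 of 20 muscle genes shared it, but 14 of 30 cell cycle, 7 of 17 neutrophil, 7 of 24 collagen and matrix and 4 of 14 stem cell genes did. A test of the difference between the estimates called 0 genes (edgeR, 996 or 5.42% at an unadjusted p under 0.05), and the smallest adjusted p among list members was 0.833. DESeq2 called 60. Without normal skin 1, which leaves normal skin 2 as the lone Krt71-low skin library, edgeR called 208 genes, and without healthy wound 2 it called 2.

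Some list genes lay in opposite order in the 2 kinds of skin, and 3 of them are described, chosen after their values were seen. Sox18, Dkk2 and Tgfb2 were among the others. The share of all genes tested with such an order was not counted, so no excess is read from these genes. Dkk3, a secreted relative of Wnt antagonists, stood at 14.2, 17.8 and 20.5 CPM in Krt71-high skin, 27.5 and 49.2 CPM in Krt71-low skin, 67.04, 108 and 144 CPM in Krt71-high wounds and 50.02 and 58.3 CPM in Krt71-low wounds. Krt71-high libraries lay lower in normal skin and higher in healthy wound. Ccne1, the cyclin of entry into DNA synthesis, stood at 6.28, 9.23 and 11.1 CPM in Krt71-high skin, 3.43 and 2.804 CPM in Krt71-low skin, 9.53, 6.45 and 8.26 CPM in Krt71-high wounds and 10.7 and 10.9 CPM in Krt71-low wounds, with the opposite order. Lce3a, a late cornified envelope gene, stood at 0.749, 3.71 and 1.83 CPM in Krt71-high skin, 0.229 and 0 CPM in Krt71-low skin, 1.43, 2.72 and 2.01 CPM in Krt71-high wounds and 20.5 and 14.4 CPM in Krt71-low wounds. None of the 3 passed the test of the difference after adjustment.

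**Figure D5:**
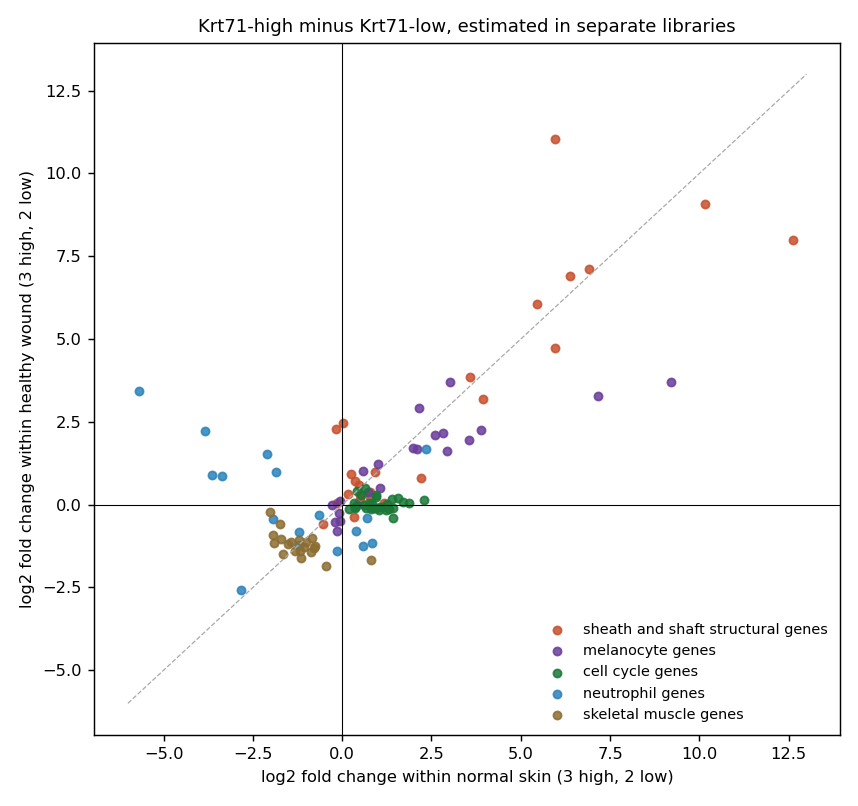
Log2 fold change, Krt71-high minus Krt71-low, within normal skin (horizontal axis) and within healthy wound (vertical axis) for members of 5 gene lists, from 1 edgeR fit over the 4 combinations of skin and class; each estimate uses 3 high and 2 low libraries, and the dashed line marks equality. Sheath and melanocyte genes lie mostly to the upper right, skeletal muscle genes to the lower left, and cell cycle genes along the horizontal axis, with a median of 0.95 in skin and -0.03 in wounds.

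Wounding itself was compared with the Krt71 class in the fit, as both groups held 3 Krt71-high and 2 Krt71-low libraries. Healthy wound against normal skin gave 559 genes (3.04%), 315 higher (1.71%) and 244 lower (1.33%) in the wound, and 479 (2.60%) without the class. The lists shared 440 genes, 78.7% of the first and 91.9% of the second. Among follicle lists it called 0 of 26 transcription factors, 1 of 25 sheath genes (Dsc2, a desmosomal cadherin), 0 of 15 Hedgehog genes, 0 of 22 melanocyte genes and 0 of 22 dermal papilla genes. It called 2 of 14 stem cell, 3 of 31 Wnt pathway, 2 of 24 BMP and activin and 1 of 29 FGF, EDA and Notch genes. Krt77, a keratin of the sweat duct and interfollicular epidermis, had an adjusted p of 0.0127 and was lower in wounds by 4.41 on the log2 scale. Apln, the apelin ligand of vessels, rose by 2.80 (adjusted p 0.00659). Cxcl5 rose by 9.37 (adjusted p 0.000801), against normal skin values near 0. Tnc rose by 3.22 with the class in the fit (adjusted p 0.0328) and by 2.748 without it (adjusted p 0.0808), and Ltbp2 by 2.73 (adjusted p 0.0198) and 2.23 (adjusted p 0.0793). Both passed the threshold only with the class. All these are edgeR quasi-likelihood tests adjusted over all genes. With the mean muscle level as a covariate, 10 genes were called, and leaving out 1 library gave 39 without healthy wound 3 to 813 without normal skin 3.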

How the data were processed

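Read counts, as deposited by the authors, were whole numbers for 55657 gene models in 15 libraries of poly-A RNA, made with an NEBNext Ultra kit per the labels. For the aligner, counting program, strand setting and genome build, the sources used here give no name. The kit is not described as marking strand, so overlapping, antisense and near-identical genes may share reads. RefSeq genes of GRCm38.p6 had both ends within 5000 bp for 92.7% of the list and named genes. Coordinates are those of the deposited table.

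CPM values are counts over the column total. Total counts per library were 15693964 to 17777165 for the healthy mice. No library of a group repeated another, with chi-square per degree of freedom of at least 36.1 between any 2.

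Counts were fitted with edgeR 4.0.16 (TMM scaling, filterByExpr, robust quasi-likelihood) in R 4.3.3 with the wounding group and the class, leaving 7 residual degrees of freedom, and p-values were adjusted by Benjamini-Hochberg over all genes tested at 0.05. One further fit held the 4 combinations of group and class. The script was tested on simulated data. DESeq2 1.42.0 and limma 3.58.1 were alternatives, with others of scaling, filter, samples, covariates and libraries left out.

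The classes, the 24 gene lists and the named genes were chosen with earlier results of these data known. The naming rule took the largest called changes (none were called), the 3 genes of each list with the smallest unadjusted p, a fixed list, and the 10 genes nearest Krt71 by rank. The last were taken among genes with a mean of at least 10 CPM and a symbol not beginning with Krt. Other list genes in the text were chosen after their values were seen. Asip was not matched in the table. The diabetic wound libraries entered only 1 alternative and the figures. No sequence is shown.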

Additional observations from a re-analysis of the deposited data

Results flagged for a closer look

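The summed CPM of 14 basal and outer sheath keratinocyte genes was 4064.2 in normal skin 3, far below the 16856 to 22923 of the other Krt71-high libraries. On the log2 scale the gap was 0.822 of the whole range. This list in the Krt71-high libraries was 1 of 48 groups looked at, and chance flags about 1 group in 20. The part of this library's low keratinocyte level in the results was not tested, but without it the test between the classes still called 0 genes.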

How the results depend on the processing

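The count of genes called between the classes stayed at 0 under every other scaling, both filters, limma-voom, a minimum log2 fold change of 1, the muscle covariate, no wounding covariate, and each library left out (0 to 0). It was 151 with DESeq2, 85 with Krt71 as a continuous term and 6 with the diabetic libraries in the fit. Calls for a class difference that differed between skin and wound were 60 with DESeq2 and 3 with no low-count filter, and 0 to 208 with 1 library left out, 208 without normal skin 1 and 2 without healthy wound 2. Leaving out a Krt71-low library leaves 1 in its arm, which is then assumed to vary like the others. Wounding calls, 559 with the class, were 2145 with DESeq2, 108 with the diabetic libraries, 9 at a minimum log2 fold change of 1, and 10 with the muscle covariate. With 1 library left out they were 39 to 813: 171 without normal skin 1, 280 without normal skin 2, 108 without normal skin 4, 71 without healthy wound 1, 39 without healthy wound 3, 191 without healthy wound 4 and 87 without healthy wound 5. The cause of these differences was not tested.

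The labels do not say that the replicate numbers pair the samples. The r was above 0.1 in 2 of 5 same-numbered pairs (-0.09 to 0.26), which does not settle it. A replicate block gave 0 calls between the classes, 0 for their difference and 420 for wounding. Same-numbered samples share a class except at numbers 2 and 3. With the block the class difference therefore rests on normal skin 2 and 3 and healthy wound 2 and 3 alone. In that fit the log2 differences of Tyr and Pmel were 0.02 and -0.14 and that of Tnc -3.10. Over 109 named genes, 75 of 2486 values changed sign, 22 of them under the replicate block and 19 under the muscle covariate. Among the 56 genes beyond 1 in size, 9 of 1274 did, in 7 genes. The scalings moved the median gene to between 0.0032 and 0.0572 on the log2 scale. With 4 Krt71-low libraries, genes at a few counts carry the widest errors.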
